A study of Mus musculus with 6 samples.

Results

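5S rRNA is read here through 7 of its annotated gene copies in the duodenum of female mice: Gm24089, n-R5s151, n-R5s162, n-R5s25, n-R5s210, n-R5s88 and n-R5s41. They were 7 of the 18 5S copies recognised in the deposited table and 7 of its 1929 transcripts. Identifiers without a match in the annotation used could not be recognised as 5S, so all 5S counts below means those of these 18. The 7 were chosen by measured values of these libraries. They are the 5S copies whose DESeq2 adjusted p was under 0.1 when heterozygous library 3 was left out, all of them lower in heterozygotes. Just inside that limit was n-R5s210 at a DESeq2 adjusted p of 0.0892, and just outside it was n-R5s33 at 0.153. The contrast of heterozygous libraries 1 and 2 with wild type is therefore described and not tested. Heterozygous library 3 is the only library whose values did not enter that fit, but leaving it out was itself part of the choice.

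Short RNAs were sequenced from 3 wild-type C57Bl/6N females and 3 females heterozygous for the allele C57BL/6N-Polr3b<em7(IMPC)Tcp>/Tcp. Polr3b encodes a large subunit of RNA polymerase III (Pol III), and the allele is a Cas9-made insertion predicted to shift the reading frame, carried in every cell beside a wild-type allele. All mice had been fasted overnight, all libraries were enriched for RNAs below 200 nucleotides and demethylated, and the ages of these mice are not given in the sources used here. The comparison asks whether the loss of a working allele of a Pol III subunit came with different levels of 5S rRNA, one of the main products of that enzyme.

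5S rRNA is the smallest ribosomal RNA and sits in the large ribosomal subunit. Pol III makes it from many gene copies, using a promoter that lies inside the gene and is bound by TFIIIA, a factor dedicated to 5S genes. Mammalian genomes hold a tandem cluster of near-identical 5S genes and many diverged single copies elsewhere, of which a large number are annotated as pseudogenes. Most 5S rRNA in a cell is thought to come from the cluster.

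How far the copies can be told apart depends on their sequence, which was compared by transcript identifier in GENCODE vM21 (GRCm38). The authors' index was built on GRCm39 and the table carries later identifier versions, so the quantified sequence may differ. The most common 5S sequence in vM21 had 119 bases and was carried by 32 of its 354 rRNA transcripts, all on chromosome 8. None of those 32 (0) was in the table. Gm24089 lies on the same chromosome, and had no substitution against the common sequence but lacked 10 of its bases. Positions within the chromosome were not compared, so its place in a cluster was not checked.

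The other 6 members are dispersed over other chromosomes and differ from the common sequence by substitutions, with 1 further base missing in n-R5s88. Identity to it was 95.8% for n-R5s151 with 5 substitutions, the closest of the dispersed members, 89.9% for n-R5s162 with 12, and 87.4% for n-R5s41 with 15, the farthest. It was 93.3% for n-R5s25, 91.6% for n-R5s210 and 89.9% for n-R5s88. The 21 pairs among the 7 copies were 79.0% to 90.8% identical, with a median of 84.9%.

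Reads can be assigned to a copy only where its sequence is its own. Of the 79 windows of 31 bases in Gm24089, 0 were unique among vM21 rRNA transcripts, 54 were shared with the common 5S sequence, and 28 (35.4%) were unique within the table. vM21 also holds an identical copy, so reads of that copy or of copies with the common sequence could be assigned to Gm24089. Its value as a single gene is uncertain. The other 6 copies were single in vM21, with 69.7% (n-R5s151) to 100% (n-R5s162) of their windows unique. RefSeq classes n-R5s151, n-R5s162 and n-R5s25 as rRNA genes and n-R5s88, n-R5s210 and n-R5s41 as pseudogenes. Gm24089 was matched to no RefSeq entry.

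Library totals ran from 1719869 in wild-type library 1 to 9771623 in heterozygous library 2, and DESeq2 size factors from 0.337 to 2.194. Libraries 1 to 3 of the heterozygotes are numbered in column order. Their columns are headed with the name of another Pol III subunit, so only their genotype group is known, and Polr3b mRNA was not analysed here. Wild-type library 1 (1719869) and heterozygous library 3 (3076652) had the smallest totals, and both stood apart in 5S rRNA, so results are given with and without them. They also differed from their group over the 626 transcripts that averaged 10 counts or more. The Spearman correlation was 0.938 between wild-type libraries 2 and 3 and 0.929 between heterozygous libraries 1 and 2, but 0.803 and 0.761 for wild-type library 1 with the others of its genotype, 0.828 and 0.841 for heterozygous library 3 with its own, and 0.861 between these 2 libraries. Intestinal epithelial microRNA genes were all present (10 of 10), with summed normalised counts of 32.5 to 136.5 in wild type and 39.8 to 74.3 in heterozygotes. The 2 smooth muscle genes summed to 4.2 to 18.4 and 11 to 38.3, and the 4 blood genes to 4.2 to 14.9 and 1.9 to 16.0. Of the pancreas genes, 2 of 3 were in the table, with 2 counts in wild-type library 1 and 0 elsewhere. The liver gene had 1 count in heterozygous library 1, and 0 of 5 striated muscle genes were in the table.

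The summed level of the 7 copies differed more within each genotype than between genotypes. The sum was 1780, 809 and 647 estimated counts in wild-type libraries 1 to 3 and 266, 220 and 12701 in heterozygous libraries 1 to 3. After division by the size factors, which makes libraries of different totals comparable, these were 5283.5, 707.6 and 539.5 normalised counts in wild-type libraries and 127.6, 100.3 and 23589.7 in heterozygous ones. Heterozygous libraries 1 and 2 lay below every wild-type library, and heterozygous library 3 lay above every wild-type library. The means were 2177 ± 2692 across wild-type libraries and 7939 ± 13550 across heterozygous ones (SD, n = 3 each). On the log2 scale, with a pseudocount of 1, heterozygotes were 0.91 below wild type on average (difference -0.91), with SDs of 1.80 in wild-type libraries and 4.44 in heterozygous ones. The difference was -3.47 without heterozygous library 3, and -2.44, a 5.47-fold lower mean, without both libraries of smallest total, where 2 libraries a genotype are left. The libraries in both of these contrasts all took part in the choice of copies. The difference turned positive without wild-type library 1 (0.12), heterozygous library 1 (0.29) or heterozygous library 2 (0.46). The sum rests on Gm24089 in heterozygous library 3. Without that copy it was 2846.5, 271.2 and 238.5 normalised counts in wild-type libraries and 58.5, 41.9 and 923.1 in heterozygous ones, so heterozygous library 3 lay within the wild-type range at 3.40 times its median, and the log2 difference was -2.10. In bulk tissue, fewer cells that make an RNA and less of it per cell cannot be told apart.

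Gm24089, the copy on chromosome 8, was the most abundant of the 7 per 100 bases in every library. Its normalised counts were 2436.9, 436.5 and 301.0 in wild-type libraries and 69.1, 58.3 and 22666.7 in heterozygous ones. Heterozygous libraries 1 and 2 were below all wild-type libraries, and library 3 was 51.9 times the wild-type median. The estimated counts behind these values were 821, 499 and 361 in wild-type libraries and 144, 128 and 12204 in heterozygous ones. The DESeq2 log2 fold change was 2.84 (SE 1.93) with all libraries, -4.03 (SE 1.07) without heterozygous library 3, and -2.50 (SE 0.49) without wild-type library 1 as well.

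The dispersed members that RefSeq classes as rRNA genes, n-R5s162, n-R5s25 and n-R5s151, were likewise lowest in heterozygous libraries 1 and 2. n-R5s162 had 457.1, 97.1 and 99.2 normalised counts in wild-type libraries and 3.8, 2.7 and 226.6 in heterozygous ones. Its 8 and 6 estimated counts in heterozygous libraries 1 and 2 stood against 154, 111 and 119 in wild type and 122 in heterozygous library 3, although libraries 1 and 2 had the largest totals. The wild-type median was 30.2 times the mean of heterozygous libraries 1 and 2, the widest such ratio among the 6 copies for which it can be formed.

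n-R5s25 had 285.0, 45.5 and 37.5 normalised counts in wild-type libraries and 0.5, 10 and 204.3 in heterozygous ones. The lowest of these rested on 1 estimated count, against 22 in heterozygous library 2 and 45 to 96 in wild type. n-R5s151 had 1599.9, 52.5 and 35.0 normalised counts in wild-type libraries and 31.7, 10.9 and 247.0 in heterozygous ones. Wild-type library 1 was 36.6 times the mean of the other wild-type libraries, and heterozygous library 1 was barely below wild-type library 3. With DESeq2's positive-count size factors that order turned, at 38.1 against 37.4, so 6 of the 7 copies and not 7 then kept both heterozygous libraries below all wild-type ones. Without wild-type library 1 the log2 fold change of n-R5s151 was 1.16 (SE 1.28) in place of -2.55 (SE 1.67). In all, 4 of the 6 copies with a value below 0 turned positive without that library, the others being n-R5s210 (0.83), n-R5s25 (0.81) and n-R5s88 (0.29).

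The members classed as pseudogenes were also lowest in heterozygous libraries 1 and 2. n-R5s88 had 222.6, 49.9 and 40.0 normalised counts in wild-type libraries and 11, 13.7 and 139.3 in heterozygous ones. n-R5s210 had 270.1, 21.9 and 22.5 in wild-type libraries and 11.5, 4.6 and 102.2 in heterozygous ones. In both, heterozygous libraries 1 and 2 were the lowest and heterozygous library 3 fell between wild-type library 1 and the other wild-type libraries.

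n-R5s41 was near the limit of detection, with 4, 5 and 5 estimated counts in wild-type libraries and 0, 0 and 2 in heterozygous ones. A count of 0 allows up to 3 counts, a mean normalised floor of 1.40 over heterozygous libraries 1 and 2. The wild-type mean of 6.80 was 4.85 times this floor. That ratio takes the wild-type mean as exact, though it rests on few counts and on 11.9 in wild-type library 1 beside 4.4 and 4.2, so it is no firm bound. Heterozygous library 3, at 3.7 normalised counts, was below the wild-type range of 4.2 to 11.9, and n-R5s41 was the only member of the 7 in which it was.

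**Figure D1:**
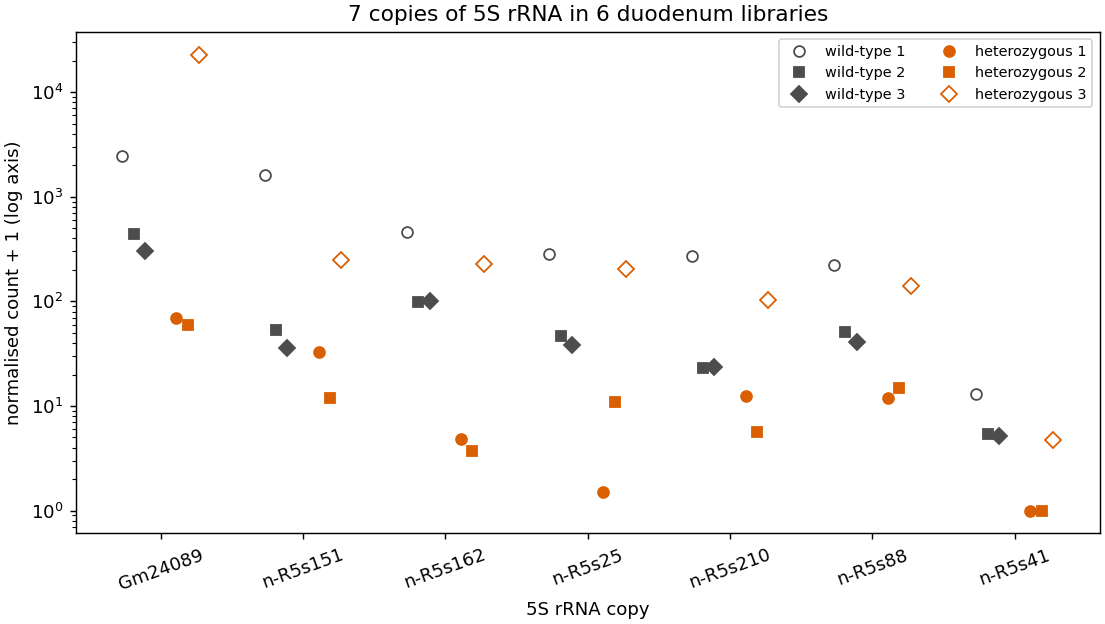
Normalised count plus 1 (log axis) of each of the 7 copies of 5S rRNA, 1 point per library, wild type in grey and heterozygous in orange, with open symbols for wild-type library 1 and heterozygous library 3. Within each genotype the open symbol is the highest point for all 7 copies, and Gm24089 in heterozygous library 3 reaches 22666.7 normalised counts.

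The same library was highest within each genotype for all 7. Wild-type library 1 was above both other wild-type libraries in 7 of 7 copies, by 2.78 times their mean for n-R5s41 to 36.6 times for n-R5s151, and 36.7% of the 881 transcripts tested without heterozygous library 3 had it highest too. Heterozygous library 3 was above both other heterozygous libraries in 7 of 7 copies, against 31.4% of those transcripts, but this follows largely from the choice of copies that were low in heterozygous libraries 1 and 2. Wild-type library 1 took part in the choice too. A high level there favours a call of lower in heterozygotes, so its count is not independent of the choice. Both counts were also 7 with TMM, library-total and positive-count scaling. The Spearman correlation of each copy with the sum of the other 6 ran from 0.64 (n-R5s41) to 0.94 over the 6 libraries, which share their scaling and their genotype difference.

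The summed level of the 7 copies ran against the library total. Wild-type library 1 and heterozygous library 3, with the smallest totals, had the highest sums of the 7 copies, and heterozygous libraries 1 and 2, with totals of 8869767 and 9771623, the lowest. The same held for the unscaled counts, so the sum held fewer counts in the larger heterozygous libraries, not only a smaller share. The copies were chosen as low in heterozygous libraries 1 and 2, which had the largest totals. Low sums at those totals therefore follow largely from the choice. The 2 wild-type libraries of intermediate total, 4078753 and 3712235, had intermediate sums. Genotype and total cannot be told apart for heterozygous libraries 1 and 2, since no wild-type library had a total as large. At the smaller totals, heterozygous library 3 had a sum 33.3 times the wild-type median, and its total lay between those of wild-type libraries 1 and 3. In the 11 other 5S copies, the Spearman correlation of the normalised sum with the total was -0.66 over the 6 libraries, against -0.89 for the 7. For unscaled counts it was -0.09, against -0.89 for the 7. The part of library total in these values was not tested.

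**Figure D2:**
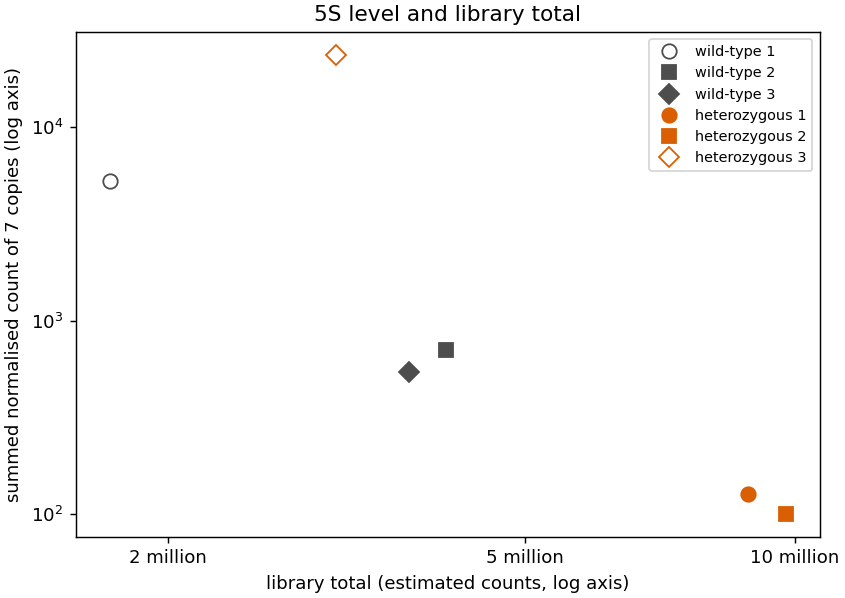
Summed normalised count of the 7 copies against the library total in estimated counts (both axes log), 1 point per library, wild type in grey and heterozygous in orange, with open symbols for wild-type library 1 and heterozygous library 3. The libraries with the smallest totals sit highest, at 5283.5 and 23589.7, and those with the largest sit lowest, at 127.6 and 100.3. The low position of the latter follows largely from the choice of copies that were low there.

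In the fit with all 6 libraries, 0 of the 7 copies were called at an adjusted p under 0.1, where 2.32% of the 734 transcripts with an adjusted p were called. DESeq2's filter for outlying counts gave 4 of them (Gm24089, n-R5s151, n-R5s162 and n-R5s25) no p, the other 3 had an adjusted p, and 0 of those 3 were at an unadjusted p under 0.05. With edgeR, 6 of the 7 passed the filter on low counts, with 0 called and 0 at an unadjusted p under 0.05. Of the log2 fold changes, 6 were below 0 and that of Gm24089 above it, with a median of -1.42 beside -0.13 over all 1929 transcripts. Each lay within 2 standard errors of 0. They were -1.49 (SE 1.64) for n-R5s162, -0.78 (SE 1.74) for n-R5s25, -0.94 (SE 1.27) for n-R5s88, -1.42 (SE 1.48) for n-R5s210 and -2.97 (SE 1.92) for n-R5s41.

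Without heterozygous library 3 all 7 were called lower, which is what chose them, where 6.13% of 881 transcripts were. The log2 fold changes then ran from -3.04 (n-R5s88, SE 1.02) to -6.03 (n-R5s162, SE 1.05), with n-R5s41 at a fitted -6.22 that is no bound, since both heterozygous libraries were at 0. Their median was -4.52, or -4.03 with n-R5s41 set at -2.28, from the floor and its wild-type mean, beside -0.21 over all transcripts. Heterozygous libraries 1 and 2 were below every wild-type library in 7 of 7 copies, as they were in 12.7% of the 881 transcripts. Both counts restate the choice of copies.

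**Figure D3:**
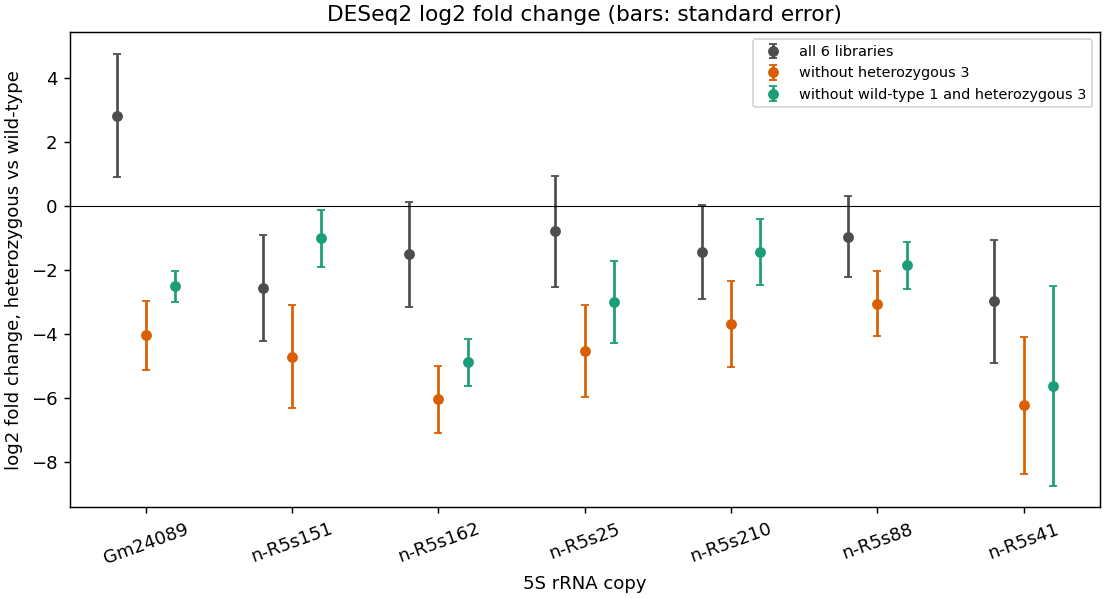
DESeq2 log2 fold change, heterozygous against wild type, of each of the 7 copies with all libraries (grey), without heterozygous library 3 (orange) and without wild-type library 1 and heterozygous library 3 (green), with bars for the standard error. The grey point of Gm24089 is at 2.84 and its orange point at -4.03, and every green point is below 0, the highest being n-R5s151 at -1.0. The libraries behind the orange and green points all took part in the choice of copies.

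Heterozygous library 3, whose values did not enter the fit that chose the copies, did not repeat the lower level. Leaving it out was itself part of the choice, since 0 of the 7 were called with it included. It is therefore no independent check. It was above every wild-type library in 1 of the 7 copies (Gm24089), against 16.9% of the 881 transcripts, and below every wild-type library in 1 (n-R5s41), against 20.3%. In the other 5 it lay within the wild-type range, at 2.28 (n-R5s162) to 4.71 (n-R5s151) times the wild-type median. Counts of 1 above and 1 below were the same with TMM, library-total and positive-count scaling. Leaving out wild-type library 1 as well, the log2 fold changes of the 7 were -4.87 (SE 0.73) for n-R5s162, -2.98 (SE 1.29) for n-R5s25, -1.84 (SE 0.74) for n-R5s88, -1.43 (SE 1.03) for n-R5s210 and -1.0 (SE 0.89) for n-R5s151, beside the values of Gm24089 above and n-R5s41 at a fitted -5.61 that is again no bound. The libraries left all took part in the choice of copies, so these values restate it in part.

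The make-up of the 5S counts differed between libraries as well as their level. Gm24089 held 38.0%, 47.7% and 44.8% of all 5S counts in wild-type libraries 1 to 3, 22.5% and 22.9% in heterozygous libraries 1 and 2, and 94.3% in heterozygous library 3 (95% Wilson interval 93.8% to 94.6%). Within the 7 copies its share was 46.1%, 61.7% and 55.8% for wild-type libraries 1 to 3, 54.1% and 58.2% for heterozygous libraries 1 and 2, and 96.1% for library 3 (95.7% to 96.4%). Of all 5S counts, the other 6 members together held 44.3%, 29.6% and 35.5% in wild type, 19.03% and 16.4% in heterozygous libraries 1 and 2, and 3.84% in library 3. The intervals cover counting error only. The lower shares of the members in heterozygous libraries 1 and 2 follow in part from the choice of copies that were low there. All 18 copies made up 0.126%, 0.0257% and 0.0217% of the total in wild-type libraries and 0.00723%, 0.00573% and 0.421% in heterozygous ones.

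**Figure D4:**
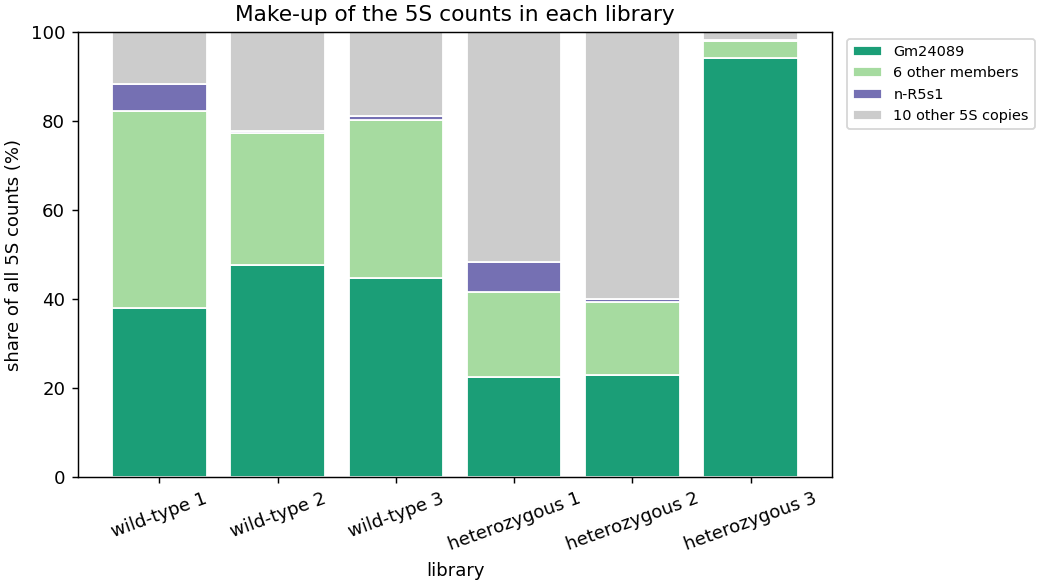
Share of all 5S counts (%) in each library held by Gm24089, the other 6 members, n-R5s1 and the 10 remaining annotated copies, as stacked bars. Gm24089 takes 94.3% in heterozygous library 3, and the 7 members together take 41.5% and 39.3% in heterozygous libraries 1 and 2 against 77.3% to 82.3% in wild type. Their lower share in heterozygous libraries 1 and 2 follows in part from the choice of copies that were low there.

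In the 11 other annotated 5S copies, heterozygous libraries 1 and 2 were not lower as a group, while wild-type library 1 and heterozygous library 3 were again high. Their sum was 1136.8, 207.3 and 132.6 normalised counts in wild-type libraries and 180.0, 155.0 and 458.8 in heterozygous ones, so that heterozygous libraries 1 and 2 lay within the wild-type range. Wild-type library 1 was the highest wild-type library in 9 of the 11, and heterozygous library 3 the highest heterozygous one in 9. The Spearman correlation with the sum of the members ran from -0.03 to 0.94 among the 11, the highest being those of n-R5s33, n-R5s60 and n-R5s152. Of these, n-R5s60 had 4 to 12 estimated counts a library and n-R5s152 at most 3, so their ranks rest on very few counts. The log2 difference was -0.43, -0.91 without heterozygous library 3, and 0.01 without wild-type library 1 as well. The median of the fitted log2 fold changes of the 11 was -0.78, and -2.89 without heterozygous library 3, where several of them rest on very few counts. Heterozygous libraries 1 and 2 were below every wild-type library in 2 of the 11, n-R5s33 and n-R5s60, the latter, like n-R5s152, named after its values were seen. Over the 881 transcripts tested without heterozygous library 3 that share was 12.7%. The rule put copies with both below among the members, so the count among the 11 depends on the choice.

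Of the 11, 5 had a mean count of at least 10. RefSeq classes n-R5s33, n-R5s28 and n-R5s13 as rRNA genes too. Of these, n-R5s13 had at most 3 estimated counts a library and is not among the 5. n-R5s33 was 96.6% identical to the common sequence. It had 329.5, 39.4 and 21.7 normalised counts in wild-type libraries and 17.3, 10.5 and 79.9 in heterozygous ones. n-R5s28 had 56.4, 42.9 and 26.7 in wild-type libraries and 28.3, 29.2 and 70.6 in heterozygous ones. n-R5s204 had 187.0, 44.6 and 31.7, and 43.7, 33.7 and 74.3. n-R5s197 had 83.1, 56.9 and 34.2, and 54.7, 64.7 and 174.6. In the last 3, heterozygous libraries 1 and 2 were within the range of wild type.

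n-R5s1 is annotated on chromosome Y, which female mice do not carry. It had 130, 4 and 7 estimated counts in wild-type libraries and 44, 4 and 9 in heterozygous ones, or 6.01% of the 5S counts in wild-type library 1 (Wilson interval 5.08% to 7.09%) and 6.86% in heterozygous library 1 (5.15% to 9.09%). It was 94.1% identical to the common sequence, and 52.8% of its windows were unique in vM21. Counts given to a copy therefore need not come from its locus, and a single copy's value is less certain than the sum.

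Among 72 further Pol III RNAs other than tRNAs, none (0) was called. The sum of these 72 transcripts (RNase MRP, Y, U6 and related RNAs) was 10676.8, 7581.1 and 10938.5 normalised counts in wild-type libraries and 6828.1, 12191.7 and 8861.2 in heterozygous ones, with the groups overlapping. The log2 difference was -0.09, and -0.07 without heterozygous library 3. Of the 18 with an adjusted p, 0 were called by DESeq2 and 0 were at an unadjusted p under 0.05, and edgeR called 0 of 10, also with 0 at an unadjusted p under 0.05. Their median log2 fold change over all 72 was 0.10. Of 152 nuclear tRNA features with an adjusted p, DESeq2 called 7, 4 higher and 3 lower, while edgeR called 0 of 136, with 8 at an unadjusted p under 0.05.

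By name, Rmrp, the RNA of RNase MRP, averaged 4533 ± 792 normalised counts across wild-type libraries and 4660 ± 1788 across heterozygous ones (SD, n = 3 each). Its log2 fold change was 0.04 (SE 0.51). Rny1 and Rny3, the Y RNAs bound by the Ro protein, had log2 fold changes of 0.17 (SE 0.30) and 0.06 (SE 0.71). Rny3 was, like 5S, highest in wild-type library 1, at 5758.4 normalised counts against 1641.8 and 1945.2. Bc1, a Pol III transcript best known from neurons, had a log2 fold change of 1.06 (SE 0.85). None (0) of these 4 was called, each with a DESeq2 adjusted p of 0.9999.

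**Figure D5:**
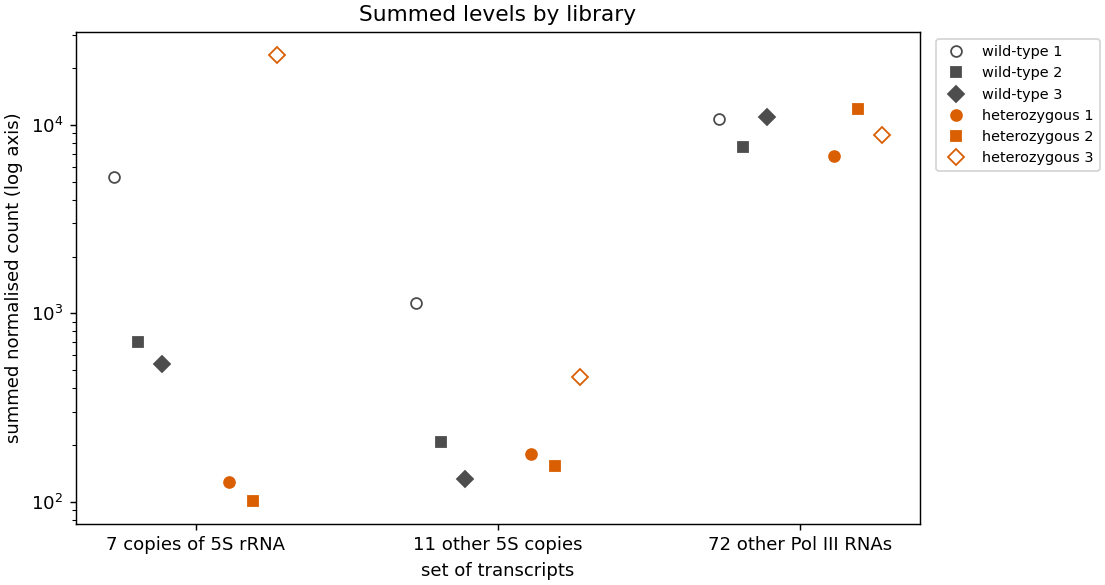
Summed normalised count (log axis) of the 7 copies, the 11 other annotated 5S copies and the 72 other Pol III RNAs in each library, wild type in grey and heterozygous in orange, with open symbols for wild-type library 1 and heterozygous library 3. The sum of the 7 copies spans 100.3 to 23589.7, while that of the other Pol III RNAs stays between 6828.1 and 12191.7. The latter sum is mostly Rmrp and Rny3, and some single members varied more, such as Rny3 from 1641.8 to 5758.4.

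The transcripts most like the sum of the 7 copies over the 6 libraries, among 365 outside the 5S copies with a symbol and a mean count of at least 10, were all small nucleolar RNAs, which guide the modification of other RNAs. Snord69, Snora9, Snord68 and Gm24134 had a Spearman correlation of 0.94 with it and Gm26293 of 0.89, with Pearson correlations of 0.82 to 0.96. Snord68 had 1053.7, 357.8 and 148.4 normalised counts in wild-type libraries and 24.5, 85.2 and 1086.5 in heterozygous ones, so it too was highest in wild-type library 1 and heterozygous library 3. Snora9 had 255.3, 258.0 and 247.6 in wild-type libraries and 221.2, 195.5 and 338.0 in heterozygous ones, a much narrower range. With 6 libraries that share 1 scaling, these correlations are a description.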

How the data were processed

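Groups came from the sample labels. Reads had been trimmed (Cutadapt) and assigned to transcripts by Salmon, whose index covered mouse coding and noncoding RNAs with the GRCm39 genome as decoy, and transcripts under 300 bases were imported through tximport. The authors deposited estimated counts in whole numbers, unscaled. Salmon apportions a read that fits several copies between them, so copies of 5S can exchange reads. The size selection, at 200 nucleotides, and the limit of 300 bases keep 5S rRNA.

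Identifiers were matched to GENCODE vM21 without their version (1356 of 1742 Ensembl identifiers). Any 5S or other Pol III RNA among the unmatched ones was missed by the lists. Other 5S and Pol III RNAs were taken by name or by BLAST 2.17.0 (identity of 80% or more across 80% or more of each sequence). DESeq2 1.42.0 (R 4.3.3), with median-of-ratios size factors and a Benjamini-Hochberg adjusted p under 0.1, was fitted to all 1929 transcripts, and edgeR 4.0.16 was the alternative. Both were also run on simulated counts with the same dispersion for all transcripts and no outlying library. These data differ from that setting, so nothing is drawn from that run. Wilson intervals (95%) used scipy 1.17.1, and alignments Biopython 1.88. Named transcripts were the 7 members, other 5S copies and listed Pol III RNAs with a mean count of at least 10, and the 5 transcripts most correlated with the 5S sum.

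The members and lists were chosen with earlier results of these data known. Separate mice are assumed from the labels. Male mice were not analysed here. The sequences of the copies are not reported here.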

Additional observations from a re-analysis of the deposited data

How the results depend on the processing

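DESeq2 called 17 transcripts with all libraries. edgeR called 0 of 577 (19 at an unadjusted p under 0.05), a filter of at least 10 counts in at least 3 libraries left 7, leaving out 1 library gave 7 (without heterozygous library 2) to 68 (without heterozygous library 3), and leaving out wild-type library 1 and heterozygous library 3, an alternative chosen after seeing the data, gave 117. Calls among the other Pol III RNAs were 0, and 1 with Cook's filtering off and 0 to 1 when 1 library was left out. That call was Gm23057, a U6-like copy named after its values were seen, with 2927 counts in wild-type library 3 and at most 2 elsewhere. The log2 difference of the 5S sum ran from -3.47 to 0.46 when 1 library was left out, and was -1.22 with the library total and -0.80 with positive-count factors, -2.10 without Gm24089 and -0.35 over all 18 copies. The 2 scalings moved the median of all transcripts by -0.32 and 0.13.

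When 1 library was left out, the log2 fold change of Gm24089 ran from -4.03 (without heterozygous library 3) to 4.40, that of n-R5s151 from -4.69 to 1.16 and that of n-R5s210 from -3.67 to 0.83. Without wild-type library 1, 4 copies turned positive, n-R5s151, n-R5s210, n-R5s25 (0.81) and n-R5s88 (0.29). Without both libraries that of Gm24089 was -2.50. The causes were not tested. With all libraries, 33 of 33 recomputed fold changes of the copies moved by less than their standard error. No paired analysis was run, since the groups are taken as separate mice and no label ties a wild-type mouse to a heterozygous one. The paper states that the 2 genotypes came from different matings, so parentage and genotype cannot be told apart. With 3 libraries a genotype and 2 that stand apart, depth limits n-R5s41 most.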
